A study of Mus musculus with 4 samples.

Results

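The expression of 35 cell cycle genes was followed in the mouse kidney across cell classes and drug treatments in a single-cell RNA-seq series. They were chosen by name: 22 act in mitosis, 11 in DNA synthesis (S phase), and Hmgb2 and Stmn1 belong to neither group. All 35 were found among the 16706 genes of the deposited count matrix, and all 35 had UMIs (unique molecular identifiers, counts of captured RNA molecules). The libraries were total kidney cells of male C57Bl/6 mice, 9 weeks old, that carried Pax2.rtTA;TetO.Cre;R26.Confetti, a lineage reporter induced from the Pax2 promoter. Every animal, the vehicle group included, had been injected with anti-GBM serum, which brings on crescentic glomerulonephritis, so no library shows an untreated kidney. From day 1 the groups received panobinostat at 15 mg/kg or givinostat at 10 mg/kg, both hydroxamate inhibitors of histone deacetylases, ruxolitinib at 60 mg/kg, an inhibitor of Janus kinases, or distilled water as vehicle. Kidneys were taken on day 7. Each group had 2 animals by the labels but a single library, and whether both animals went into it is not stated.

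A dividing cell copies its DNA in S phase and separates the copies in mitosis, and each step has its own set of transcripts. The replication genes are switched on around the entry into S phase by E2F factors, whereas genes of the spindle, the kinetochore and chromosome condensation follow in G2 through promoter elements such as the cell cycle homology region. Most epithelial cells of the adult nephron are quiescent but can re-enter the cycle after injury, and leukocytes that infiltrate an inflamed kidney can divide in place. Inhibitors of histone deacetylases are known to slow the cell cycle of cultured cells, and cytokines that signal through Janus kinases drive the expansion of T cells.

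After filtering, 4396 cells were kept in the panobinostat library, 3472 in the givinostat library, 3979 in the ruxolitinib library and 3930 in the vehicle library, with 36861583, 45075309, 42882138 and 40627826 UMIs in that order. The shallowest kept cell had 2920, 5272, 3817 and 3723 UMIs in the same order, so the libraries had been deposited with different lower limits of depth. The 4 libraries also fell into pairs: Tpm3-rs7 stood at 3.96 CPM (UMIs of the gene per 1000000 UMIs) in the panobinostat and 4.14 CPM in the vehicle library, against 53.8 CPM in both the givinostat and the ruxolitinib libraries. Any pair of libraries shared between 2 and 4 cell barcodes. Because each group is 1 library, no difference below has a replicate check and no test is given. The intervals are 95% exact intervals that cover counting error only, and all 3 drug libraries are compared with the same vehicle library.

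Mitotic transcripts were concentrated in very few cells. Of 33440 UMIs of the 22 mitotic genes, 50% lay in 115 of 15777 cells, or 0.729% of the cells. By library, 50% of them lay in 25 cells under panobinostat, 38 under givinostat, 30 under ruxolitinib and 26 under vehicle, and the highest single cells held 245, 393, 323 and 278 mitotic UMIs in that order. S phase transcripts were spread far more widely: 50% of 27749 UMIs lay in 997 cells, or 6.32% of the cells. The counting intervals do not cover the variation in how many such cells a library happens to hold.

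How tightly each gene was tied to mitotic cells was measured as the share of its UMIs that lay in cells with 5 or more UMIs of the other mitotic genes. Counted over all mitotic genes, there were 691 such cells, 4.38% of all cells, and they held 6.07% of all UMIs. The median over the 15464 genes with 50 or more UMIs was 6.07%, and 150 of those genes exceeded 50%. Of the 22 mitotic genes, 21 exceeded 50% and 19 exceeded 70%, with a median of 81.9%. The S phase genes had a median of 30.6%, and Rrm2 was the only one of the 11 above 50%.

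**Figure D1:**
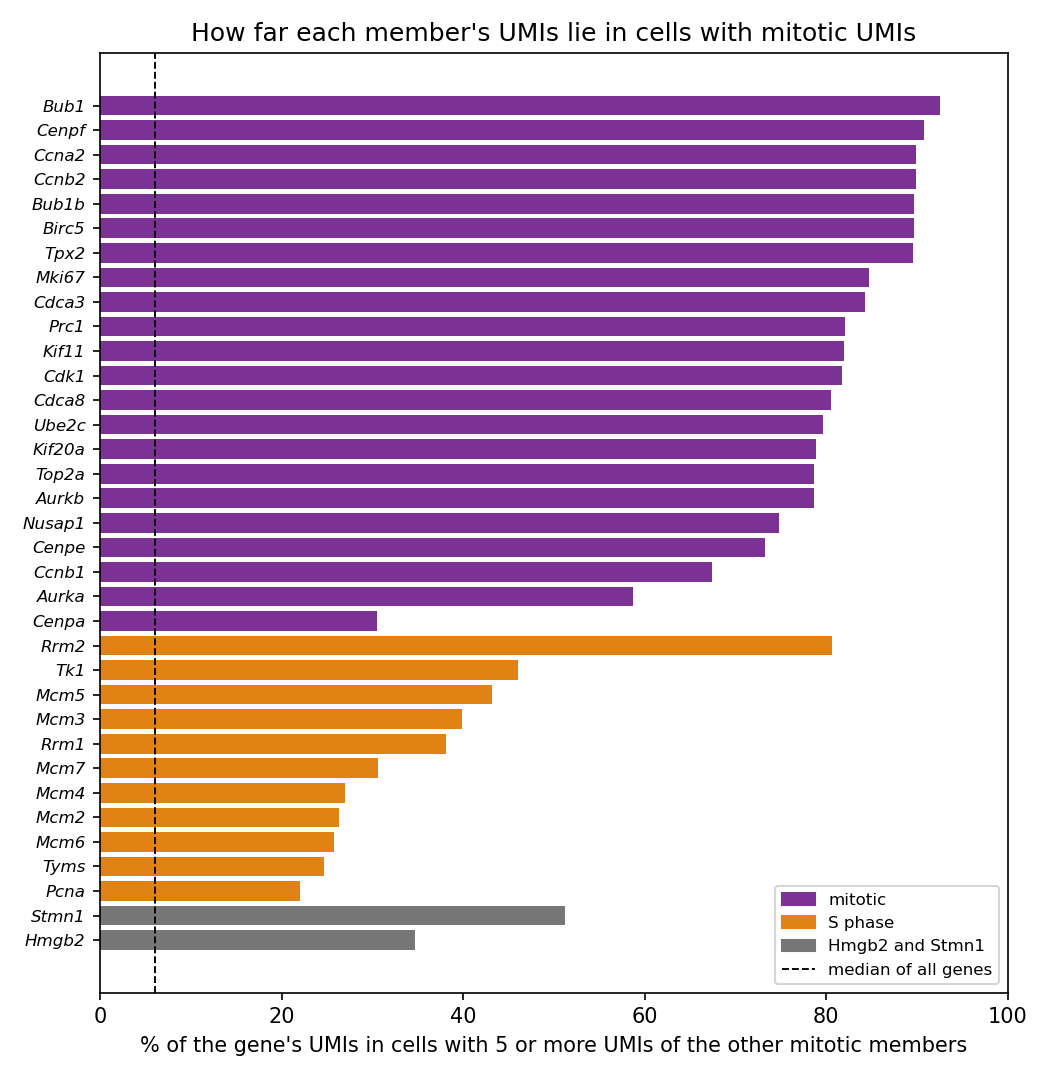
Share of each gene's UMIs, in percent, found in cells with 5 or more UMIs of the other mitotic genes, all 4 libraries together; the dashed line is the median of all genes, 6.07%. Mitotic genes lie between 58.7% and 92.5% apart from Cenpa at 30.6%, and S phase genes lie between 22.03% and 46.0% apart from Rrm2 at 80.6%.

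The tightest gene was Bub1, a kinase of the spindle checkpoint, with 92.5% of its UMIs in such cells. It was followed by Cenpf, a kinetochore protein, at 90.8%, and by Ccna2 and Ccnb2, cyclins that activate Cdk1, both at 89.9%. Mki67, the usual marker of proliferating cells, which coats mitotic chromosomes, had 84.8%. Top2a, the topoisomerase that untangles sister chromatids, had 78.7%. Ccnb1, the other mitotic B-type cyclin, had 67.4%, and Aurka, the kinase of the spindle poles, 58.7%.

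Cenpa, which encodes the histone H3 variant of centromeres, stood apart from the other mitotic genes. Only 30.6% of its UMIs lay in cells with 5 or more other mitotic UMIs. Outside such cells it reached 77.4 CPM in leukocyte classes, against 1.23 CPM in tubule classes. Pcna, the sliding clamp of DNA polymerases, showed the same contrast at 70.6 CPM in leukocyte and 12.4 CPM in tubule classes outside mitotic cells. Tyms and Tk1, which make thymidine nucleotides, and Stmn1, which destabilises microtubules, were instead higher in tubule than in leukocyte classes outside mitotic cells: Tyms had 18.8 CPM in tubule and 10.3 CPM in leukocyte classes, Tk1 6.33 and 3.04 CPM, and Stmn1 33.4 and 21.97 CPM. These genes therefore carried a level in cells with little mitotic RNA, and that level differed by cell type. Cell classes were named from marker genes with all listed cell cycle genes left out of the clustering.

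The promoters of the 35 genes were searched for the elements named above. RefSeq windows from 250 bases before to 50 bases after the start (GRCm38.p6) were found for 29 of the 35 genes, 18 of them mitotic and 10 of S phase. The cell cycle homology region was searched as TTTGAA or TTCGAA, the E2F element as TTTGGCGC, TTTCCCGC, TTTCGCGC or TTTGCCGC, and the CCAAT box as CCAAT, each on both strands and with overlaps allowed. The 4 windows shown represent a mitotic kinase gene with all 3 elements, a tightly confined cyclin gene, the cyclin gene with the largest difference between libraries, and a helicase gene of S phase. Cdk1 is at chr10:69352863-69353162 on the minus strand, Ccnb2 at chr9:70421505-70421804 on the minus strand, Ccnb1 at chr13:100786437-100786736 on the minus strand and Mcm5 at chr8:75109259-75109558 on the plus strand. Capitals mark matches to any of the elements on either strand.
Cdk1: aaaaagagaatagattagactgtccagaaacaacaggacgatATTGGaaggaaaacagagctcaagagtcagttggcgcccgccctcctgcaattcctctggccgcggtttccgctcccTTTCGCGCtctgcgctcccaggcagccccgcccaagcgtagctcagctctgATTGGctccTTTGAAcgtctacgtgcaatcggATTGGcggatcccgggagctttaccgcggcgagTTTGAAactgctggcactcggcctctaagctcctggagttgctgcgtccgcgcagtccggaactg
Ccnb2: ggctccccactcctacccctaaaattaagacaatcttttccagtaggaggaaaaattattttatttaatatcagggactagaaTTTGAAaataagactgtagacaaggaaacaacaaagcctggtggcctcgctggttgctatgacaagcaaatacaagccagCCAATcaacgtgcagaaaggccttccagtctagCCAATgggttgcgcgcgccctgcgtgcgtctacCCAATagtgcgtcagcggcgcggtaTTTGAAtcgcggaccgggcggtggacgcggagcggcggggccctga
Ccnb1: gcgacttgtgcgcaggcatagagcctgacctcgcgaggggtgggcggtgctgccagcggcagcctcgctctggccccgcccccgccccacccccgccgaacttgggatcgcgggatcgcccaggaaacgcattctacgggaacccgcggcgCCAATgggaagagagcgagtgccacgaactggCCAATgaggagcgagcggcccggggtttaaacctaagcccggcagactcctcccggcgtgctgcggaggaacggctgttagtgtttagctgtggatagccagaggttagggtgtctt
Mcm5: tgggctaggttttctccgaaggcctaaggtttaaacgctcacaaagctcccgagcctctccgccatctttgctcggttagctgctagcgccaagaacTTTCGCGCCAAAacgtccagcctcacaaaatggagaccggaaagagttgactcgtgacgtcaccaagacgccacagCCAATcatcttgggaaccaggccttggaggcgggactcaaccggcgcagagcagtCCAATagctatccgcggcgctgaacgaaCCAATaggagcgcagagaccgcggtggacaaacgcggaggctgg

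A match to the cell cycle homology region was present in 14 of the 18 mitotic promoters, or 77.8%, against 19.4% of all 27025 promoters in the table and 14.5% of the 12237 that belong to genes of the count matrix. It was present in 2 of the 10 S phase promoters, those of Mcm2 and Mcm7. In Cdk1 it lay 71 and 15 bases before the start. Ccnb1, Birc5, Cenpe and Nusap1 had none in these windows. The E2F element matched 4 of the 10 S phase promoters, Mcm3, Mcm5, Mcm6 and Mcm7, and 1 of the 18 mitotic promoters, Cdk1, against 2.32% of all promoters and 3.69% of those of genes in the matrix. In Mcm5, the E2F matches TTTCGCGC and GCGCCAAA overlap, and GCGCCAAA is TTTGGCGC read on the other strand. The CCAAT box was common in both groups, with 16 of 18 and 8 of 10, against 37.9% of all promoters and 38.1% of those of genes in the matrix. A match describes these letters only, not a bound factor.

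Summed over the mitotic genes, the level was 183.39 CPM in the panobinostat library, 226.53 CPM in the givinostat library and 196.77 CPM in the ruxolitinib library, against 197.67 CPM in the vehicle library. The ratios to vehicle were 0.928 (0.898 to 0.958), 1.15 (1.11 to 1.18) and 0.995 (0.965 to 1.03). The S phase sum was 139.17, 200.46 and 171.07 CPM in the 3 drug libraries in the same order, against 153.76 CPM under vehicle. Its ratios were 0.905 (0.872 to 0.939), 1.30 (1.26 to 1.35) and 1.11 (1.08 to 1.15). Whole-library levels mix cell types, and in them a change in the number of cells of a type cannot be told apart from a change in the RNA per cell. Leukocyte classes made up 26.1% of the cells under panobinostat, 44.8% under givinostat and 31.8% under ruxolitinib, against 33.0% under vehicle. Within leukocyte classes the mitotic ratios were 0.901, 0.729 and 0.818 in the same order, and within tubule classes 0.796, 0.719 and 1.20. In the remaining and unnamed cells together they were 3.33, 2.05 and 1.37. Erythroid-like cells, counted among the latter, held 758, 947 and 390 mitotic UMIs, against 2 under vehicle. Their part in the whole-library ratios was not tested.

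**Figure D2:**
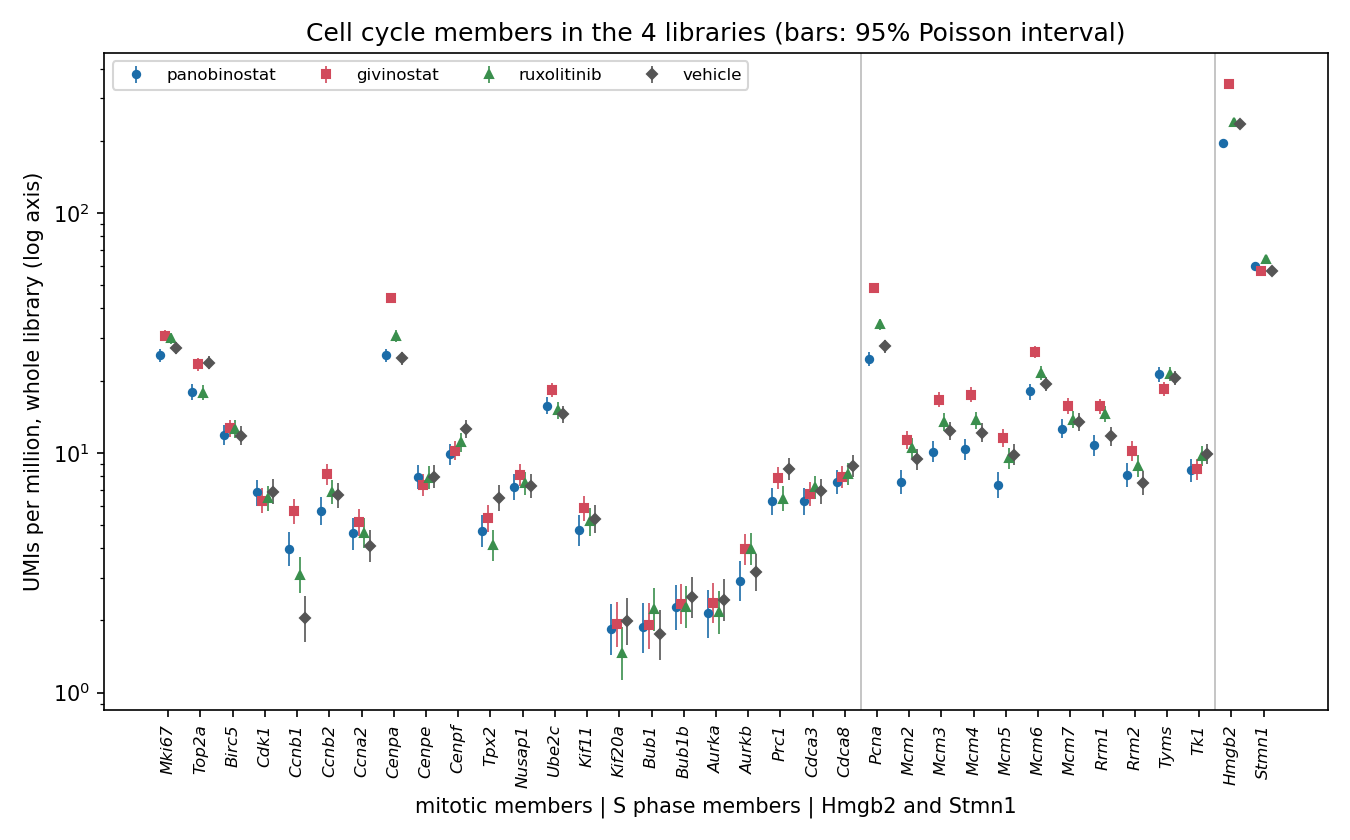
Level of each gene in the whole library in CPM (log axis), one symbol per library, with 95% exact Poisson intervals of counting error; vertical lines separate mitotic genes, S phase genes, and Hmgb2 with Stmn1. Ccnb1 is lowest in the vehicle library, and Cenpa, Pcna and Hmgb2 are highest in the givinostat library.

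Ccnb1 was the only gene past 1.5-fold in all 3 comparisons. It had 147 UMIs (3.99 CPM) in the panobinostat library, 257 UMIs (5.70 CPM) in the givinostat library and 133 UMIs (3.10 CPM) in the ruxolitinib library, against 83 UMIs (2.04 CPM) in the vehicle library, which was the lowest of the 4. The ratios were 1.95 (1.48 to 2.59), 2.79 (2.17 to 3.62) and 1.52 (1.15 to 2.02). A single loop of Henle-like cell of the givinostat library held 105 of its 257 UMIs, with 0 UMIs of other mitotic genes. Without that cell the givinostat ratio was 1.65 (1.26 to 2.18). The same step, leaving out the highest cell of the drug library only, gave 1.83 under panobinostat and 1.42 under ruxolitinib, which ends the ruxolitinib call. With 5 CPM added in place of 0.5 UMI, Ccnb1 passed 1.5-fold neither under panobinostat nor under ruxolitinib. By class, dendritic-like cells held 38, 53 and 39 Ccnb1 UMIs in the drug libraries, against 26 under vehicle. T-like cells held 28, 41 and 25 in the drug libraries, against 22 under vehicle, and proximal tubule-like cells 37, 19 and 23, against 6. These are UMIs and not levels, because class totals differed. All genes of T-like cells summed to 1677374, 5740197 and 2732764 UMIs in the drug libraries, against 3529661 under vehicle. Other classes did not follow: macrophage-like cells held 9, 8 and 16, against 11 under vehicle, and collecting duct-like cells 3, 0 and 14, against 10. As levels, macrophage-like cells had 11.8, 4.76 and 11.5 CPM, against 11.3 CPM under vehicle. Collecting duct-like cells had 1.52, 0 and 5.70 CPM, against 2.58 CPM. Ccnb2 did not follow: its ratios were 0.858 under panobinostat, 1.22 under givinostat and 1.03 under ruxolitinib.

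In all, 1 of the 35 genes was at least 1.5-fold higher under panobinostat, Ccnb1, where 2.27% of the 14111 genes tested were higher, and 0 were lower, where 7.82% of genes were. Genes were counted when the 2 libraries together held 50 or more of their UMIs. Under givinostat 3 were higher, Ccnb1, Cenpa and Pcna, against 12.1% of 14531 genes, and 0 were lower, against 3.38%. Under ruxolitinib Ccnb1 was higher and Tpx2, which builds spindle microtubules and activates Aurka, was lower, against 4.39% and 2.60% of 14371 genes. The ruxolitinib call of Ccnb1 was lost under the stricter cell filter and with TMM or DESeq2 scaling, and that of Tpx2 with 5 CPM added. Counts this small are close to what the background shares give for 35 genes. The median log2 ratio was −0.11, 0.04 and 0.01 for the mitotic genes and −0.17, 0.41 and 0.16 for the S phase genes under panobinostat, givinostat and ruxolitinib, against −0.07, 0.08 and 0.06 for all genes tested.

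Cenpa stood at 25.5 CPM under panobinostat, 44.3 CPM under givinostat and 30.7 CPM under ruxolitinib, against 24.8 CPM under vehicle. Pcna followed the same order of libraries, apart from the lowest pair, with 24.6, 48.8 and 34.4 CPM in the drug libraries, against 27.7 CPM under vehicle. Both genes had a high level in leukocytes outside mitotic cells, and the givinostat library held the largest share of leukocytes. The part of that share in the result was not tested. Hmgb2, a DNA-bending chromatin protein, was the most abundant of the 35 genes and had 195.68, 343.09 and 238.35 CPM in the drug libraries, against 234.67 CPM under vehicle. A processed copy of Pcna that the matrix lists, Pcna-ps2, had 0.163, 0.444 and 0.257 CPM in the drug libraries, against 0.246 CPM under vehicle.

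Apart from Ccnb1, Cenpa and Tpx2, the mitotic genes were within 1.5-fold of vehicle in each of the 3 drug libraries. Cdk1, the kinase that starts mitosis, had 252, 285 and 277 UMIs in the drug libraries, against 280 under vehicle, with ratios of 0.992, 0.917 and 0.937. Aurkb, Birc5 and Cdca8 encode parts of the chromosomal passenger complex. Their ratios lay between 0.859 for Cdca8 under panobinostat and 1.25 for Aurkb under givinostat. Tpx2 had 174, 240 and 177 UMIs in the drug libraries, against 263 under vehicle, with ratios of 0.729 (0.599 to 0.886), 0.823 and 0.638. Top2a had ratios of 0.754 under panobinostat, 0.984 under givinostat and 0.749 under ruxolitinib. The other 13 mitotic genes, Mki67, Ccna2, Cenpe, Cenpf, Nusap1, Ube2c, Kif11, Kif20a, Bub1, Bub1b, Aurka, Prc1 and Cdca3, stayed within 1.5-fold. They lay between 0.737 (Prc1) and 1.13 (Ccna2) under panobinostat, between 0.813 (Cenpf) and 1.26 (Ube2c) under givinostat, and between 0.737 (Kif20a) and 1.28 (Bub1) under ruxolitinib. Stmn1 had ratios of 1.05, 1.00 and 1.13.

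The 6 helicase genes Mcm2 to Mcm7, which unwind DNA at origins, summed to 66.0 CPM under panobinostat, 98.9 CPM under givinostat and 82.4 CPM under ruxolitinib, against 76.4 CPM under vehicle. All 6 were below vehicle under panobinostat, with ratios of 0.749 for Mcm5 up to 0.940 for Mcm7, and all 6 were above it under givinostat, with 1.17 for Mcm7 up to 1.44 for Mcm4. Rrm1 and Rrm2, the subunits of ribonucleotide reductase, had ratios of 1.33 and 1.36 under givinostat. Tyms and Tk1 went the other way, at 0.900 and 0.863 under givinostat. They are the S phase genes that were higher in tubule than in leukocyte classes outside mitotic cells.

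Leukocyte classes held most of the mitotic UMIs in every library: 65.0% under panobinostat, 77.3% under givinostat and 68.7% under ruxolitinib, against 75.8% under vehicle. This rests on leaving the cell cycle genes out of the clustering: with them kept, the shares were 24.6%, 36.2% and 31.3%, against 22.1% under vehicle. In that clustering, clusters of 139 and 99 cells with Mki67 among their leading genes stayed unnamed. Those cells were then counted in no class, here and wherever that clustering is used below. In CPM, dendritic-like cells were highest or next to highest among the 8 classes with 50 or more cells in every library, with 843, 764 and 787 CPM in the drug libraries, against 769 CPM under vehicle. They were 4.87%, 5.85% and 5.96% of the cells in the drug libraries and held 29.1%, 25.6% and 31.3% of the mitotic UMIs, against 5.98% and 26.0% under vehicle. T-like cells followed with 799, 592 and 691 CPM, against 804 CPM under vehicle. Macrophage-like cells had 593, 424 and 558 CPM, against 724 CPM under vehicle. Proximal tubule-like cells, the largest class, had 40.9, 31.0 and 44.4 CPM, against 26.9 CPM under vehicle.

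**Figure D3:**
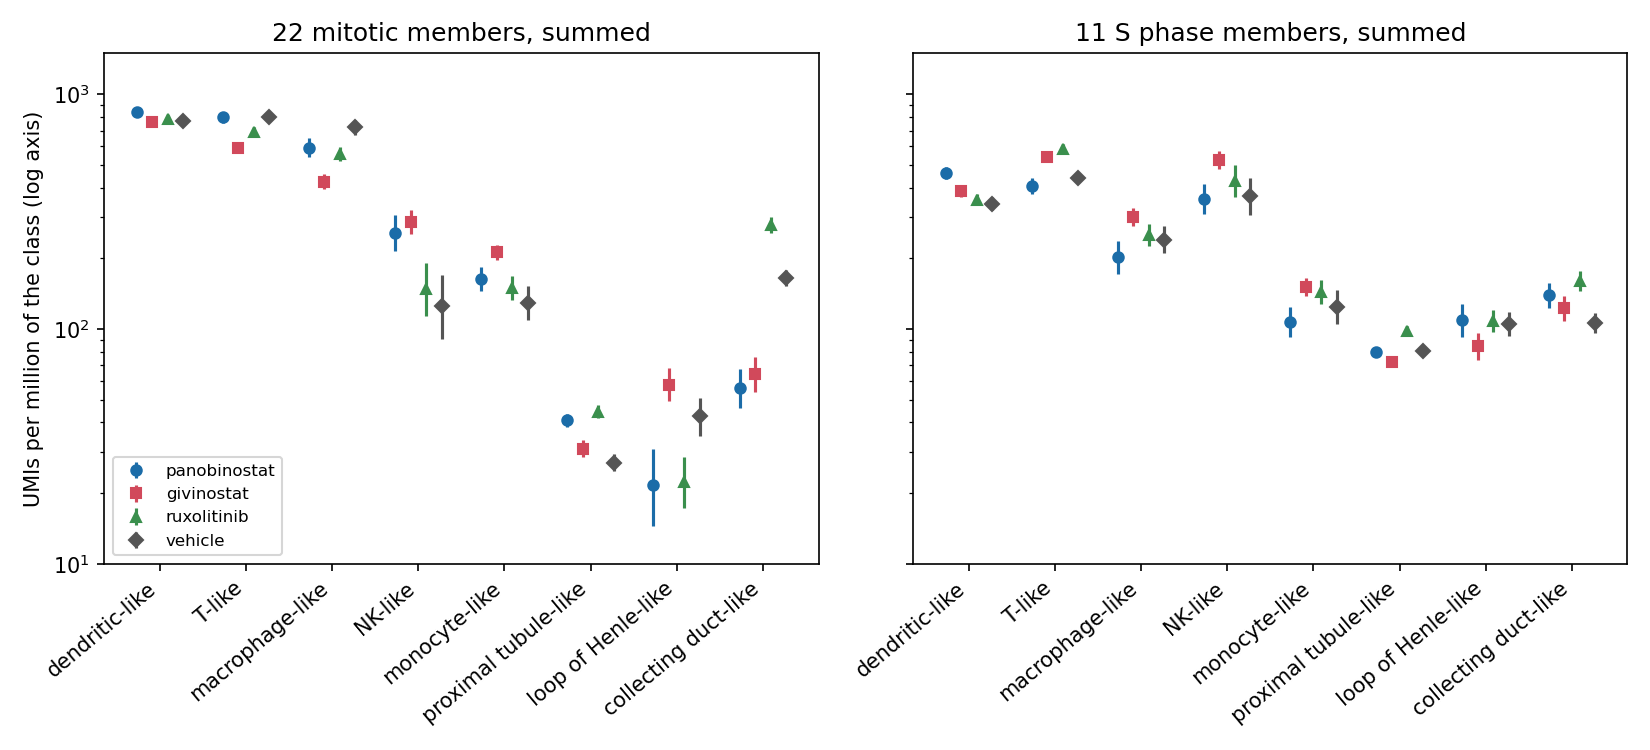
Summed mitotic genes (left) and summed S phase genes (right) in 8 cell classes, in CPM of the class (log axis), with 95% exact Poisson intervals of counting error and one symbol per library. Dendritic-like, T-like and macrophage-like cells lie above 400 CPM of mitotic genes and proximal tubule-like cells below 50 CPM, and the gap between the classes is smaller for S phase genes.

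Monocyte-like cells had 164, 212 and 150 CPM of mitotic genes in the drug libraries, against 129 CPM under vehicle, but most of this was Cenpa. Cenpa made up 208 of 271 mitotic UMIs under panobinostat, 434 of 759 under givinostat and 210 of 299 under ruxolitinib, against 108 of 144 under vehicle. Without Cenpa the class had 38.0, 90.9 and 44.5 CPM, against 32.3 CPM under vehicle. Cells with 5 or more mitotic UMIs then numbered 0, 4 and 0 in the drug libraries, against 0 under vehicle. The givinostat value owed much to 1 cell, which held 27.3% of the class's mitotic UMIs in that library.

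Erythroid-like cells, recognised by globin genes, numbered 103 under panobinostat, 76 under givinostat and 143 under ruxolitinib, against 6 under vehicle. They held 1306, 1349 and 355 CPM of mitotic genes in the drug libraries, and 2 mitotic UMIs in all under vehicle. In the drug libraries 17, 17 and 20 of them had 5 or more mitotic UMIs. Ube2c made up 190 of 758, 209 of 947 and 151 of 390 mitotic UMIs of the class in these libraries. Nusap1 made up 79, 99 and 85. Under ruxolitinib Ube2c was found in 59 cells and Nusap1 in 42, against 6 for Mki67 and 3 for Top2a. How many of the cells with 5 or more mitotic UMIs rest on Ube2c and Nusap1 was not counted. The class held 11.2%, 9.27% and 4.62% of the mitotic UMIs of the 3 drug libraries. With 6 vehicle cells no fold is given.

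Tubule classes summed to 41.4 CPM of mitotic genes under panobinostat, 37.4 CPM under givinostat and 62.7 CPM under ruxolitinib, against 52.1 CPM under vehicle. The ratios were 0.796 (0.736 to 0.860), 0.719 (0.662 to 0.781) and 1.20 (1.12 to 1.29). In proximal tubule-like cells the ratios were 1.52 (1.37 to 1.69), 1.15 (1.02 to 1.29) and 1.65 (1.49 to 1.83). These rest on few cells: 50% of the mitotic UMIs of the class lay in 5, 9 and 6 cells in the drug libraries and in 18 cells under vehicle, and the highest cell held 17.1%, 20.04% and 25.5%, against 12.1%. The number of proximal tubule-like cells with 5 or more mitotic UMIs was 16, 5 and 17 in the drug libraries, against 18 under vehicle, so the ratios above 1 were not matched by more such cells. When classes were called cell by cell, the panobinostat ratio was 0.763 and the givinostat ratio 0.895, and with the cell cycle genes kept for clustering both were 0.902.

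Of the mitotic genes tested in proximal tubule-like cells, 6 of 14 were at least 1.5-fold higher under panobinostat, among them Mki67 with 143 UMIs against 70 under vehicle and Top2a with 65 against 26, where 1.95% of 11415 genes were higher. None of them was lower, and of the 11 S phase genes 1 was lower, Tk1, where 2.51% of genes were. Under ruxolitinib 8 of 14 were higher, among them Prc1, which bundles the microtubules of the spindle midzone, with 55 UMIs against 18 under vehicle, where 5.28% of 11457 genes were, and so were 3 S phase genes, Mcm3, Rrm1 and Rrm2. Of the mitotic and S phase genes 0 were lower under ruxolitinib, where 1.76% of genes were. Under givinostat 0 of 11 were higher, against 4.04% of 11352 genes, and 1 was lower, Mki67, with 35 UMIs against 70, where 1.86% of genes were lower, as were the S phase genes Mcm5 and Tk1. Since the genes share a handful of cells, such counts are not independent observations.

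In collecting duct-like cells the mitotic level was 56.3 CPM under panobinostat, 64.3 CPM under givinostat and 278 CPM under ruxolitinib, against 165 CPM under vehicle. Here 50% of the UMIs lay in 3, 1 and 2 cells in the drug libraries and in 2 cells under vehicle. The mitotic genes with enough UMIs were the same 4 in both comparisons, Cenpf, Mki67, Prc1 and Top2a. All 4 were at least 1.5-fold lower under panobinostat and givinostat, where 3.39% of 8931 and 5.14% of 8966 genes were. Their vehicle UMIs alone, 102, 86, 50 and 63 in that order, met the minimum of 50. Genes high under vehicle were thus the ones tested, so this count is no support for a fall. A single vehicle cell held 79 of the 102 Cenpf UMIs. Among 7 S phase genes tested, 2 were higher under panobinostat, Mcm4 and Mcm6, and 2 under givinostat, Pcna and Rrm2, where 7.19% and 4.22% of genes were. Under ruxolitinib 7 of 9 mitotic and 4 of 8 S phase genes were higher and 0 lower, where 5.31% and 2.87% of 9166 genes were. Birc5, Cdca3, Cenpa, Cenpe and Ube2c met the minimum only with their ruxolitinib UMIs, at 32, 42, 40, 37 and 35. The highest ruxolitinib cell for each gene held 55 of 142 Mki67 and 54 of 106 Cenpf UMIs. Counts of genes that share so few cells are not independent observations in this class. The summed mitotic ratio under panobinostat, 0.342, was 1.497 with the cell cycle genes kept for clustering. The ruxolitinib mitotic ratio of 1.69 became 0.184 at a finer clustering and 0.686 with classes called cell by cell. Loop of Henle-like cells had 21.6, 58.0 and 22.3 CPM in the drug libraries, against 42.5 CPM under vehicle, and 68.2% of the givinostat value was the single cell with 105 Ccnb1 UMIs. Without the highest cell of each library the givinostat ratio was 0.569 in place of 1.37.

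In T-like cells, mitotic and S phase genes had different ratios to vehicle under givinostat and ruxolitinib. Mitotic genes had ratios of 0.994 (0.931 to 1.06) under panobinostat, 0.737 (0.701 to 0.775) under givinostat and 0.859 (0.810 to 0.911) under ruxolitinib, while S phase genes had 0.926 (0.845 to 1.01), 1.22 (1.15 to 1.30) and 1.33 (1.24 to 1.42). Under givinostat 8 of the 21 mitotic genes tested were at least 1.5-fold lower, against 2.41% of 9127 genes: Aurka, Cdca3, Cdca8, Cenpe, Cenpf, Nusap1, Tpx2 and Ube2c. None of the mitotic genes was higher and 1 S phase gene was, Mcm2, where 5.92% of genes were. The median log2 ratio was −0.52 for those 21 and 0.21 for the 11 S phase genes, against 0.07 for all genes tested in the class. Depth and clustering moved these values. Among cells above the same floor of 5272 UMIs the mitotic ratio was 1.12, 0.357 and 0.556 and the S phase ratio under givinostat was 0.820, so the S phase direction did not hold there. With the cell cycle genes kept for clustering, the mitotic ratio was 0.907, 1.49 and 1.31.

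As examples, 4 genes were taken after their values were seen, so they add no support to the sums. Ube2c, which feeds ubiquitin to the anaphase-promoting complex, had 71.5 CPM in T-like cells under panobinostat, 40.1 CPM under givinostat and 51.6 CPM under ruxolitinib, against 70.5 CPM under vehicle. Cenpe, a kinetochore motor, had 36.4, 13.4 and 18.7 CPM in the drug libraries, against 24.1 CPM under vehicle. Pcna had 87.6, 133 and 127 CPM, against 95.2 CPM under vehicle, and Mcm2 22.1, 34.7 and 31.1 CPM, against 22.9 CPM. For these 4 genes the panobinostat library lay nearer to the vehicle library than to the others in Ube2c, Pcna and Mcm2, and above it in Cenpe. Under panobinostat 2 of 19 mitotic genes were higher, Ccnb1 and Cenpe, where 3.97% of 7673 genes were, and 2 were lower, Kif11 and Tpx2, where 4.65% were. Under ruxolitinib 1 of 19 was lower, Tpx2, where 2.34% of 8197 genes were, and 1 of the S phase genes was higher, Tyms, where 4.05% were.

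The number of S phase UMIs per mitotic UMI in T-like cells was 0.510 (0.465 to 0.560) under panobinostat, 0.909 (0.865 to 0.954) under givinostat and 0.847 (0.792 to 0.906) under ruxolitinib, against 0.548 (0.515 to 0.583) under vehicle. Without Cenpa the values were 0.595, 1.09 and 0.993, against 0.625. With the cell cycle genes kept for clustering they were 2.09, 1.65 and 2.05, against 2.04, so givinostat was then lowest and the ruxolitinib and vehicle values lay together. Those values leave out the cells of the unnamed clusters with Mki67 among their leading genes, so they are not for the same cells. The pairs of libraries seen with the cell cycle genes left out were the ones that Tpm3-rs7 separated. What lies behind that pairing is not known, and whether it plays a part was not tested. The class was made up of 3 clusters. A further cluster of 504 cells, led by Lef1, Dapl1 and Ccr7, scored highest for T cell markers but stayed unnamed and is not counted in it. In the cluster led by Tnfrsf4, Ctla4 and Cd4 the ratio was 0.327, 0.811 and 0.961 in the drug libraries, against 0.338 under vehicle. Its mitotic level was 1410, 548 and 607 CPM, against 1301 CPM under vehicle, with 50% of the UMIs in 2, 6 and 3 cells, against 5. In the cluster led by Cd8a and Cd8b1 the ratio was 0.684, 1.01 and 0.724, against 0.939 under vehicle, so it did not follow the pairs. In the cluster led by Il17a and Trdc, with 28, 112 and 92 cells in the drug libraries, against 116 under vehicle, it was 1.15 (0.604 to 2.21), 0.858 (0.738 to 0.998) and 1.75 (1.34 to 2.29), against 1.87 (1.40 to 2.51). Givinostat was thus lowest in that cluster. The Cd8a cluster was the largest of the 3 under panobinostat (221 of 356) and ruxolitinib (206 of 454), and the Ctla4 cluster was the largest under givinostat (303 of 683) and vehicle (281 of 662).

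**Figure D4:**
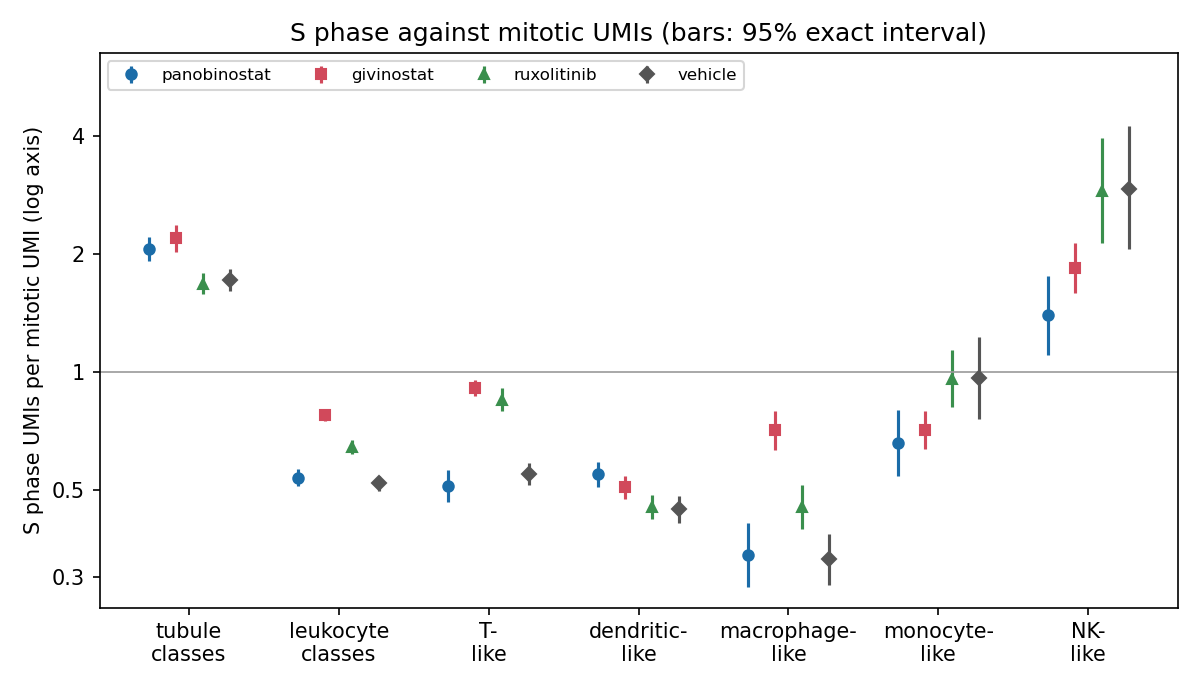
S phase UMIs per mitotic UMI (log axis) in the tubule classes together, the leukocyte classes together and 5 leukocyte classes, with 95% exact intervals of counting error and one symbol per library. Tubule classes lie between 1.68 and 2.19, leukocyte classes together between 0.519 and 0.775, and T-like and macrophage-like cells are highest in the givinostat library.

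Over the compartments the ratio ran higher in tubule than in leukocyte classes in every library. It was 2.06, 2.19 and 1.68 in tubule classes of the drug libraries, against 1.72 under vehicle, and 0.537, 0.775 and 0.644 in leukocyte classes, against 0.519 under vehicle. Cells with few mitotic UMIs carried S phase transcripts in both compartments: outside mitotic cells Mcm6 had 33.4 CPM in leukocyte and 10.9 CPM in tubule classes. The ratio is therefore not a ratio of cells in 2 phases in either compartment. Macrophage-like cells had 0.341, 0.708 and 0.452 in the drug libraries, against 0.332 under vehicle. Dendritic-like cells varied less, with 0.547, 0.506 and 0.452, against 0.445 under vehicle.

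In dendritic-like cells the mitotic ratios were 1.10 (1.03 to 1.17), 0.992 (0.937 to 1.05) and 1.02 (0.966 to 1.08), and the S phase ratios 1.35 (1.23 to 1.47), 1.13 (1.04 to 1.23) and 1.04 (0.954 to 1.13). With classes called cell by cell the panobinostat mitotic ratio was 0.822. All 11 S phase genes were above vehicle under panobinostat, with a median log2 ratio of 0.44 against 0.03 for all genes tested. Rrm2, the regulated subunit of ribonucleotide reductase, had 90 UMIs under panobinostat, 53 under givinostat and 43 under ruxolitinib, against 46 under vehicle. Mcm6, Rrm2 and Tk1 passed 1.5-fold under panobinostat together with Ccna2 and Ccnb1, 5 of 33 genes, against 11.9% of 7903 genes. Under givinostat 4 of 33 did, Ccnb1, Ccnb2, Mcm6 and Pcna, against 7.50% of 8317 genes, and under ruxolitinib 1 of 34, Bub1, against 9.26% of 8373 genes. Aurka and Prc1 were at least 1.5-fold lower under givinostat and under ruxolitinib, where 3.02% and 3.54% of genes were lower, and Cenpe was lower under panobinostat, where 3.96% were. The Xcr1 cluster of the class had the higher mitotic level in every library, with 1312, 855 and 1134 CPM in the drug libraries, against 817 CPM under vehicle, and the Cd209a cluster had 726, 739 and 660 CPM, against 753 CPM.

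In macrophage-like cells the mitotic ratios were 0.819 (0.726 to 0.923), 0.585 (0.527 to 0.651) and 0.770 (0.695 to 0.854), with 50% of the UMIs in 3, 6 and 3 cells in the drug libraries and in 4 under vehicle. With the cell cycle genes kept for clustering, the givinostat and ruxolitinib ratios were 1.08 and 1.32. Under givinostat 9 of the 10 mitotic genes tested were at least 1.5-fold lower, against 4.81% of 5952 genes. These genes share few cells, so counts of them in this class are not independent observations. Prc1 had 15, 27 and 30 UMIs in the drug libraries, against 39 under vehicle, although the givinostat library had 161 cells of the class against 136 under vehicle. The number of macrophage-like cells with 5 or more mitotic UMIs was 9, 19 and 15 in the drug libraries, against 14 under vehicle. Without Cenpa it was 9, 13 and 10, against 12 under vehicle. Those cells were 7.09%, 8.07% and 5.88% of the class in the drug libraries, against 8.82% under vehicle. Under panobinostat 4 of 9 mitotic genes were lower, against 6.46% of 4412 genes, and under ruxolitinib 6 of 10, against 3.70% of 5620 genes. None of the genes tested was higher under panobinostat or ruxolitinib, where 7.37% and 9.02% of genes were, and Pcna alone was higher under givinostat, where 9.26% were. The S phase ratios were 0.841, 1.25 and 1.05.

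Counting cells rather than UMIs gave a picture that depended on depth and on Cenpa. Of the leukocyte classes, 24.2% of cells under panobinostat, 40.3% under givinostat and 29.9% under ruxolitinib had 2 or more mitotic UMIs, against 24.5% under vehicle. Without Cenpa the shares were 11.8%, 20.3% and 15.7%, against 14.1% under vehicle, so panobinostat was then below vehicle. Neutrophil-like cells, which have left the cell cycle, gave 0 of 18, 7 of 29 and 5 of 25 cells in the drug libraries, against 5 of 24 under vehicle, so this count has a background of its own in leukocytes. Without Cenpa the neutrophil-like cells counted were 0, 1 and 3 in the drug libraries, against 2 under vehicle. The median depths of neutrophil-like cells were 4703, 11052 and 6034 UMIs in the drug libraries, against 6137 under vehicle. Among leukocytes with at least 5272 UMIs, each thinned at random to 5272, the shares were 26.2%, 25.2% and 23.9%, against 23.7% under vehicle. This left out 628 leukocytes under panobinostat, 0 under givinostat and 415 under ruxolitinib, against 643 under vehicle.

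Within T-like cells the share with 2 or more mitotic UMIs was 18.5%, 40.8% and 26.4% in the drug libraries, against 21.8% under vehicle, and after thinning 27.3%, 30.01% and 27.1%, against 27.5% under vehicle. In dendritic-like cells it was 43.5%, 52.2% and 41.8%, against 34.5%, and after thinning 32.6%, 28.6% and 22.9%, against 21.4% under vehicle. In proximal tubule-like cells it was 2.17%, 5.65% and 3.51%, against 3.10%, and after thinning 1.40%, 1.496% and 1.46%, against 1.05% under vehicle. The T-like cells thinned this way were 88 of 356, 683 of 683 and 229 of 454 in the drug libraries, against 207 of 662 under vehicle. When whole libraries were thinned and no cell was left out, the T-like shares were 18.5%, 27.8% and 20.7%, against 16.9% under vehicle, and the leukocyte shares 24.2%, 28.4% and 23.2%, against 19.8%. The fractions of UMIs kept, 1.0, 0.594 and 0.739 in the drug libraries and 0.786 under vehicle, were set on proximal tubule-like cells. Leukocyte medians before thinning were 4930, 8342 and 6516 UMIs, against 5291 under vehicle, so leukocyte depth was not made equal. The givinostat excess that remained thus differed between the ways of thinning, and only thinning to the floor equalised leukocyte depth. In dendritic-like cells panobinostat was first by either way of thinning, at 43.5%, 40.4% and 35.0% in the drug libraries, against 31.1% under vehicle, when no cell was left out.

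**Figure D5:**
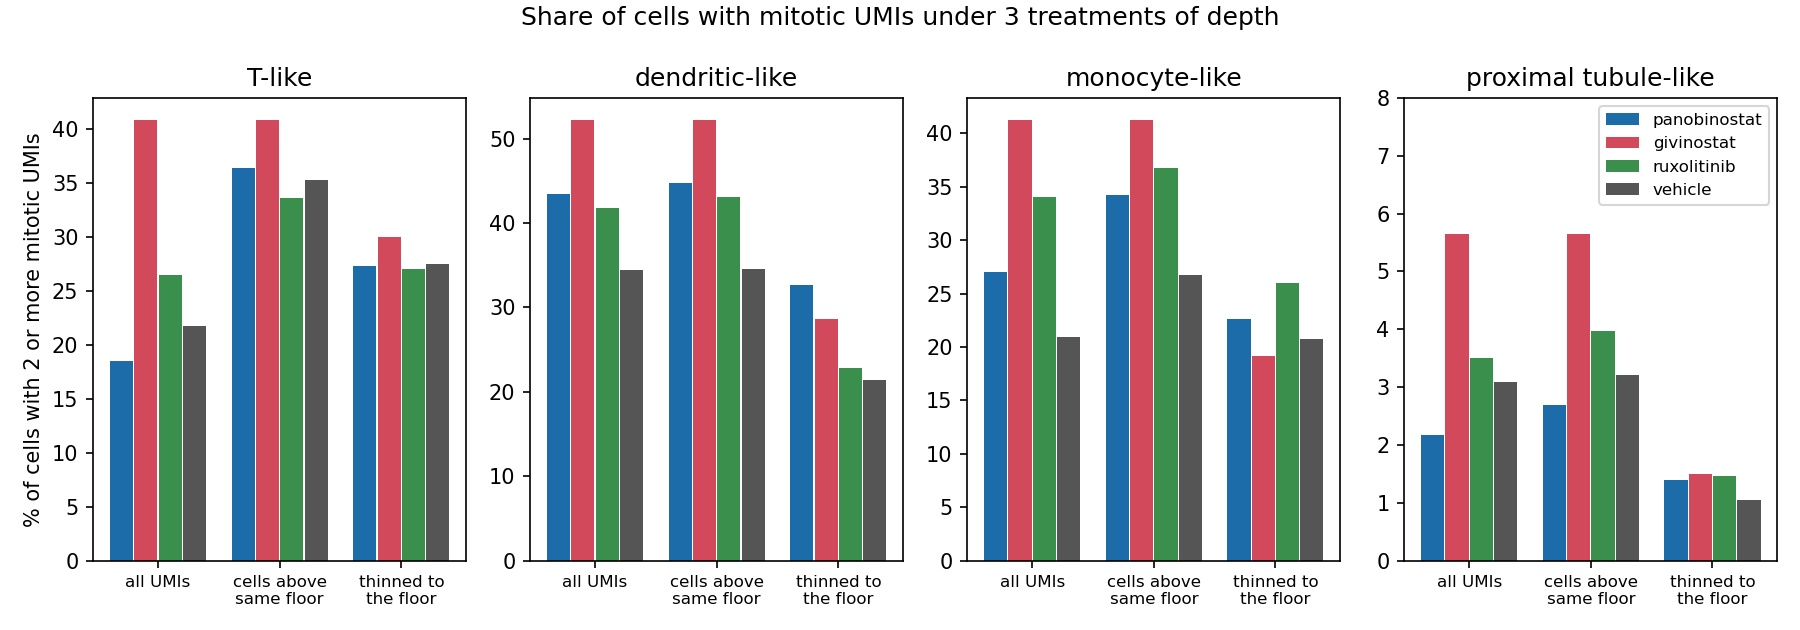
Percent of cells with 2 or more mitotic UMIs in 4 classes, with all UMIs, in cells above the same floor of 5272 UMIs, and after thinning those cells to that floor; bars are the 4 libraries, and the vertical scale differs between panels. In T-like cells the givinostat bar of 40.8% with all UMIs becomes 30.01% after thinning, beside 27.5% for vehicle.

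Cells were also sorted by whether they had 5 or more mitotic UMIs, 5 or more S phase UMIs, or both. With all UMIs, 63, 151 and 109 cells of the drug libraries had mitotic UMIs only, 65, 92 and 76 had both, and 75, 250 and 171 had S phase UMIs only. Under vehicle the numbers were 63, 72 and 122 cells. When each library was thinned to the depth of the shallowest, judged by its proximal tubule-like cells, S phase UMIs only were left in 75 cells under panobinostat, 109 under givinostat and 111 under ruxolitinib, against 87 under vehicle. These numbers are calls on UMIs and were not read as phases of single cells.

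Tubule-like cells with 5 or more mitotic UMIs were set beside the rest of their class for Cdkn1a and Ptprc. The 56 proximal tubule-like cells with 5 or more mitotic UMIs had a median of 17327 UMIs, against 9575 in the other 7260 cells of the class. Cdkn1a, the p21 inhibitor of cyclin-dependent kinases, stood at 75.4 CPM (58.9 to 95.05) in them, against 7.29 CPM (6.72 to 7.89) in the others, but its 71 UMIs lay in 11 of the 56 cells. Their summed proximal tubule markers were 10780 CPM, against 15948 CPM in the others. Ptprc, the leukocyte marker CD45, had 6 UMIs in the 56 cells, or 6.37 CPM, against 5.87 CPM in the others. Doublets were not removed, and their part and that of depth were not tested. In loop of Henle-like cells Cdkn1a had 363 CPM in the 8 cells with 5 or more mitotic UMIs, with its 57 UMIs in 5 of them, against 22.3 CPM in the others. The other tubule classes did not share this: Cdkn1a had 48.9 CPM (32.5 to 70.6) in 25 such collecting duct-like cells, against 36.5 CPM in the others, and 19.2 CPM (6.25 to 44.9) in 8 such intercalated-like cells, against 42.4 CPM. In collecting duct-like cells Ptprc stood at 104.7 CPM in the cells with mitotic UMIs, against 59.7 CPM in the others. These comparisons are across cells of the 4 libraries together.

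Other genes of the cycle were counted from listed sets. Of 111 further mitotic genes, 2 of 108 tested were at least 1.5-fold higher and 2 lower under panobinostat, 6 of 109 higher and 2 lower under givinostat, and 2 of 110 higher and 2 lower under ruxolitinib. Of 55 further replication genes, 0 of 54 were higher and 1 lower under panobinostat, 6 of 55 higher under givinostat and 1 of 55 higher under ruxolitinib. The background shares are those given above for the whole libraries. Cyclins of G1 went different ways: Ccnd1 had 104.15, 79.8 and 122.03 CPM in the drug libraries, against 112.36 CPM under vehicle, and Ccnd2 43.5, 86.9 and 53.0 CPM, against 56.6 CPM under vehicle. Outside mitotic cells Ccnd1 had 89.0 CPM in leukocyte and 108 CPM in tubule classes, while Ccnd2 had 202 CPM in leukocyte and 2.15 CPM in tubule classes. Among kinase inhibitors, Cdkn2d had 36.1, 50.8 and 39.2 CPM in the drug libraries, against 32.1 CPM under vehicle.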

How the data were processed

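Single cell suspensions of mouse kidney were run on a 10x Chromium instrument, per the labels' protocols, and the authors deposited a matrix of UMI counts per gene and cell. The submitters' processing notes name Cell Ranger 3.0.1 and mm10. The deposited counts had not been normalised. Libraries were told apart by the barcode suffix; the suffix for controls was taken as vehicle because it was the only group without a name of its own. Replication was 1 library per group. The 35 genes, the gene lists and the markers were chosen with earlier results of these data known, and some alternatives were added after seeing the data.

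Cells with at least 200 genes and 500 UMIs and at most 50% mitochondrial UMIs were kept, 15777 of 16003. They were scaled to 10000, clustered with scanpy 1.11.5 (2000 variable genes, 30 components, 15 neighbours, Leiden resolution 1.0) with 229 cell cycle genes left out, and 26 of 30 clusters were named from markers as "-like". A cluster with 3 or more uroplakin genes among its 10 leading genes stayed unnamed, a rule made after seeing the data. Clusters of 504 cells led by Lef1 and of 183 cells led by Siglech also stayed unnamed and count in no leukocyte class. Scrublet called 3, 80 and 12 cells of the drug libraries and 1 of the vehicle library as doublets; it was not relied on and no cell was removed for it.

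UMIs were summed by gene, class and library and given per 1000000 UMIs of the class or library (CPM). Intervals are 95% exact Poisson for levels, conditional binomial for ratios and Clopper-Pearson for shares. Fold counts used 1.5-fold with 50 or more UMIs in both libraries together and 0.5 UMI added. The counting steps were tested on simulated data. The rule for named genes was all 35 members, by class those with 50 or more UMIs in both libraries together and the 5 highest and 5 lowest ratios, and the 4 genes with the most UMIs of each further list. One result under that rule is not reported here. Members named for passing 1.5-fold, and Ccnb1 where it had fewer UMIs, were chosen after their values were seen. Alternatives covered the cell filter, clustering, cell-by-cell classes, UMI floors, thinning and scaling with edgeR 4.0.16 (TMM) and DESeq2 1.42.0 (R 4.3.3). No column belonged to another sample, and no genome position is taken from the files. Gene models of GRCm38 list copies of Ccnb1, Ccnb2, Tyms, Stmn1 and Pcna, of which the matrix holds Pcna-ps2.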

Additional observations from a re-analysis of the deposited data

Results flagged for a closer look

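Ratios to the vehicle library lay on opposite sides of 1 in the leukocyte and tubule classes in 2 cases. Mitotic UMIs under ruxolitinib had a ratio of 0.818 in leukocyte classes and 1.20 in tubule classes. S phase UMIs under givinostat had a ratio of 1.09 in leukocyte classes and 0.917 in tubule classes. Each rests on 1 library per group, and the difference between the compartments was not tested.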

How the results depend on the processing

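No paired analysis was possible because each group has 1 library, and for the same reason no replicate could be left out. Ratios are to the vehicle library, and values of several libraries run panobinostat, givinostat, ruxolitinib, vehicle unless named. Where a value moved, the cause was not tested. Under the stricter cell filter the whole-library mitotic ratios were 0.884, 1.02 and 0.866, and the S phase ratios 1.24 under givinostat and 1.06 under ruxolitinib. There the S phase UMIs per mitotic UMI of tubule classes were 2.57 under panobinostat, 2.37 under ruxolitinib and 1.60 under vehicle. Leukocyte classes held 70.2%, 78.8%, 80.0% and 79.7% of mitotic UMIs and 51.9%, 71.7%, 59.3% and 57.9% of S phase UMIs, and 1 gene passed 1.5-fold under ruxolitinib.

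Among cells above the floor of 5272 UMIs the givinostat library ratios were 1.11 for mitotic and 1.35 for S phase genes. The T-like mitotic ratios were 1.12, 0.357 and 0.556, and the T-like S phase ratios 0.820 under givinostat, on the other side of 1, and 1.11 under ruxolitinib. S phase UMIs per mitotic UMI were 0.462 under panobinostat, 0.600 under ruxolitinib and 0.440 under vehicle in leukocyte classes, and 0.350, 0.787 and 0.395 in T-like cells of the same libraries. The leukocyte share of S phase UMIs was 42.5%, 49.1% and 45.6% in those libraries, and the ratio of leukocyte cell shares 1.21 under givinostat and 1.05 under ruxolitinib.

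TMM scaling gave library ratios of 0.999, 1.09 and 0.956 for mitotic genes and 0.974, 1.24 and 1.07 for S phase genes, with T-like mitotic ratios of 0.700 under givinostat and 0.808 under ruxolitinib. DESeq2 size factors gave 0.993, 1.08 and 0.953 for mitotic genes, 0.969, 1.22 and 1.07 for S phase genes and 0.700 for T-like mitotic genes under givinostat. Under ruxolitinib 1 gene passed 1.5-fold with either scaling. With 5 CPM added, 0 genes passed under panobinostat and 0 under ruxolitinib.

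With the cell cycle genes kept for clustering, mitotic ratios turned to the other side of 1 in proximal tubule-like cells (0.902 under panobinostat and 0.902 under givinostat), collecting duct-like cells (1.497 under panobinostat), macrophage-like cells (1.08 under givinostat and 1.32 under ruxolitinib) and T-like cells (1.49 under givinostat and 1.31 under ruxolitinib), with 0.907 for T-like cells under panobinostat. S phase UMIs per mitotic UMI were then 1.10, 1.24, 1.17 and 1.28 in leukocyte classes, 3.94, 3.34, 3.69 and 3.05 in tubule classes and 2.09, 1.65, 2.05 and 2.04 in T-like cells. The leukocyte share of mitotic UMIs was 24.6%, 36.2%, 31.3% and 22.1%, and that of S phase UMIs 35.5%, 50.5%, 42.3% and 36.2%. That clustering left clusters of 139 and 99 cells, with Mki67 among their leading genes, unnamed and outside all classes.

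With classes called cell by cell, mitotic ratios crossed 1 in proximal tubule-like cells (0.763 under panobinostat and 0.895 under givinostat), dendritic-like cells (0.822 under panobinostat) and collecting duct-like cells (0.686 under ruxolitinib, where S phase genes had 0.924). T-like mitotic ratios were 0.665 under panobinostat and 0.729 under ruxolitinib, and the S phase ratio 1.17 under ruxolitinib. S phase UMIs per mitotic UMI were 0.650 under panobinostat and 0.701 under ruxolitinib in leukocyte classes, 3.21, 2.54 and 1.97 in tubule classes of the drug libraries, and 0.735 under panobinostat and 0.917 under ruxolitinib in T-like cells. Leukocyte classes held 50.3%, 74.9%, 62.8% and 74.7% of mitotic UMIs, and 43.1% and 65.6% of S phase UMIs under panobinostat and givinostat. At Leiden resolution 0.5 the loop of Henle-like mitotic ratio under ruxolitinib was 1.05, the givinostat leukocyte shares were 78.3% of mitotic and 69.1% of S phase UMIs, and the vehicle share of S phase UMIs was 52.6%. At resolution 1.5 the ruxolitinib ratios were 1.28 for loop of Henle-like mitotic genes, and 0.184 and 0.884 for collecting duct-like mitotic and S phase genes.

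Counting cells with 3 or more mitotic UMIs gave ratios of cell shares of 1.87 under givinostat and 1.41 under ruxolitinib in leukocyte classes, and under givinostat 0.739 in tubule classes and 0.780 in proximal tubule-like cells. With 5 or more, the givinostat ratios were 0.660 in tubule classes and 0.418 in proximal tubule-like cells. With cells thinned to the same number of UMIs the leukocyte ratios were 1.06 under givinostat and 1.01 under ruxolitinib, and the tubule ratios 1.02 under panobinostat and 0.969 under givinostat.

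The alternatives from here on were chosen after seeing the data. Thinning libraries to the shallowest gave cell share ratios of 1.22 under panobinostat and 1.43 under givinostat in leukocyte classes, and under givinostat 0.872 in tubule classes and 0.915 in proximal tubule-like cells. Depth was judged there on proximal tubule-like cells, so leukocyte depth was not made equal. Without Cenpa the library mitotic ratios were 1.05 under givinostat and 0.961 under ruxolitinib, the T-like ratio under givinostat 0.697, and the leukocyte cell share ratios 0.833 under panobinostat and 1.43 under givinostat. S phase UMIs per mitotic UMI were then 0.648, 0.987, 0.783 and 0.603 in leukocyte classes and 0.595, 1.09, 0.993 and 0.625 in T-like cells. Without the highest cell of each library or class the T-like mitotic ratios were 0.905 under panobinostat and 0.789 under ruxolitinib, and the loop of Henle-like ratio under givinostat 0.569. S phase UMIs per mitotic UMI were 2.35, 2.42, 1.98 and 2.06 in tubule classes, and 0.591 under panobinostat and 0.943 under ruxolitinib in T-like cells.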

Other observations

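Genes outside the listed sets were also confined to cells with 5 or more UMIs of the mitotic genes. Replication-dependent histone genes were among them, with 95.7% of the UMIs of Hist1h3c, 90.2% of those of Hist1h1b and 89.3% of those of Hist1h2ap in such cells. Neil3, a DNA glycosylase, had 90.9%. Tmcc2 and Slc4a1, among the leading genes of the erythroid-like cluster, had 50.8% and 43.8%, so not all such genes belong to the cell cycle. Under ruxolitinib 59 erythroid-like cells held Ube2c and 42 held Nusap1. How many erythroid-like cells reached 5 mitotic UMIs through these 2 genes was not counted. Hist1h3c, Hist1h1b, Hist1h2ap, Neil3, Tmcc2 and Slc4a1 were chosen after their values were seen.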
